A study of Mus musculus with 20 samples.

Results

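Livers of male mice given phenobarbital for 90 days were set directly against livers of male mice given it for 28 days. The comparison used 10 of the 20 arrays of the study, namely 5 named PB_90d and 5 named PB_28d in the sample titles, and each array held liver RNA of 1 mouse. All animals were CD-1, an outbred stock. The treated mice received phenobarbital sodium by mouth every day at 80 mg/kg/day for 90 or 28 days. Vehicle mice received 0 mg/kg/day, that is methylcellulose alone, for the same 90 or 28 days, with 5 mice per group. The left lateral lobe of the liver was taken on the day after the last dose. Mice dosed for longer were also older at necropsy unless they started younger. Their ages are not stated in the labels, so that duration of dosing, age and time of necropsy cannot be told apart between the treated groups. For that reason the vehicle levels at both durations stand beside each gene described. PB stands for phenobarbital and CMC for the vehicle.

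Phenobarbital is a sedative that activates the constitutive androstane receptor (CAR) in hepatocytes without needing to bind it. CAR then moves to the nucleus, pairs with the retinoid X receptor and switches on genes of drug metabolism, above all P450 enzymes of the Cyp2b and Cyp2c families, along with enzymes that conjugate drugs and hormones and transporters that export them. Prolonged dosing of mice is known for liver enlargement and, after much longer exposure, for liver tumours.

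Values are log2 RMA intensities, on which a difference of 1 is a doubling, and differences are 90 minus 28 days. They are relative levels of 1 gene across mice and do not rank genes by abundance. Each value comes from its own animal, and p-values rest on the variation from mouse to mouse. The 16 hepatocyte markers tested, among them secreted plasma proteins and liver enzymes, averaged 13.98 to 14.41 in PB 90-day livers, 13.60 to 14.32 in PB 28-day livers, 14.32 to 14.42 in CMC 90-day livers and 14.09 to 14.42 in CMC 28-day livers. Those levels lie near the top of the scale in every group. Over all arrays the leading principal component took up 55.6% of the variance. Replicate 3 of the PB 90-day group and replicate 5 of the PB 28-day group stood apart on it, with scores of -65.2 and -108, against -39.8 for the next array. The mean score was -1.08 in PB 90-day livers and -17.5 in PB 28-day livers, a difference that did not pass the exact permutation test (two-sided p = 0.579). Over all probe sets, replicate 5 of the PB 28-day group had the highest 25th percentile (4.26) and the lowest 75th percentile (6.62) of all arrays. Replicate 3 of the PB 90-day group had the next lowest 75th percentile, 6.81. Results are therefore also given without these 2 arrays.

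Across 16054 genes, 1 gene was called higher in PB 90-day than in PB 28-day livers and 0 were called lower, at an adjusted p under 0.05 in limma. The called gene made up 0.00623% of those tested. The median difference over all genes was 0.00, and 50.3% of the differences were positive. An unadjusted p under 0.05 was reached by 314 genes with a higher mean (1.96%) and 365 with a lower mean (2.27%), or 4.23% of all genes. The 5 mice of 1 group lay wholly above the 5 of the other for 61 genes higher at 90 days (0.38%) and 41 lower (0.255%). For a gene whose groups do not differ, lack of overlap has a p of 0.00794 in an exact permutation test. Neither the share without overlap nor the share at an unadjusted p under 0.05 exceeded what equal groups would give. Lack of overlap alone therefore marks no gene as different. All genes described below other than Sult1e1 missed the adjusted threshold, and their values are given as measured differences.

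Sult1e1 encodes estrogen sulfotransferase, an enzyme that inactivates estrogens by adding a sulfate group. Its level was 7.71, 8.80, 8.30, 9.71 and 8.93 in the PB 90-day livers. In the PB 28-day livers it was 6.04, 6.44, 6.27, 4.36 and 6.93. The lowest 90-day mouse stood above the highest 28-day mouse, so the groups did not overlap. Sult1e1 rose by 2.68 log2 units (SE 0.36, 95% interval 1.92 to 3.44), or 6.41-fold, with an adjusted p of 0.00546 in limma. The vehicle livers held 4.0, 4.05, 3.83, 4.05 and 3.96 at 90 days and 4.18, 4.20, 3.72, 4.32 and 4.11 at 28 days. The vehicle values were at the dim end of the scale, above the array's own 25th percentile on 2 of 5 arrays at 90 days and 4 of 5 at 28 days. Their difference was -0.13 (unadjusted p = 0.723).

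The test of whether the Sult1e1 difference was larger in treated than in vehicle livers gave 2.81 log2 units with an unadjusted p of 2.1e-05 in limma and an adjusted p of 0.337, so that it did not pass over all genes. Treated mice spread more widely in this gene than vehicle mice, with SDs of 0.75 in PB 90-day, 0.98 in PB 28-day, 0.09 in CMC 90-day and 0.23 in CMC 28-day livers. The call used a spread shared by all 4 groups. In a fit of the PB groups alone the same difference of 2.68 had an SE of 0.47 and an adjusted p of 0.996 in limma, and the call was lost. For Sult1e1 alone, an exact permutation test of the 10 treated mice gave a two-sided p of 0.00794, the smallest that 252 splits allow, which 102 genes reached. That p follows from the lack of overlap, and Sult1e1 was picked from the same comparison, so it adds no separate support. Without the 2 arrays that stood apart the Sult1e1 difference was 3.01 (adjusted p = 0.00256 in limma). One PB 28-day mouse, replicate 4, lay far below its group at 4.36. Without it the difference was 2.27 (adjusted p = 0.00132).

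The 250 bases before the start of Sult1e1 are shown because it was the gene called. The window lies at chr5:87591612-87591861, minus strand, in RefSeq's GRCm38.p6 annotation. The letters AGGTCA and AGTTCA, 6-base sites known to be bound by nuclear receptors such as CAR, were searched on both strands. The capitals mark the 1 match, AGGTCA on the reverse strand, 113 bases before the start. AGGTCA was found in 13.8% of 27025 windows of the same length, and AGTTCA in 11.9%.
Sult1e1: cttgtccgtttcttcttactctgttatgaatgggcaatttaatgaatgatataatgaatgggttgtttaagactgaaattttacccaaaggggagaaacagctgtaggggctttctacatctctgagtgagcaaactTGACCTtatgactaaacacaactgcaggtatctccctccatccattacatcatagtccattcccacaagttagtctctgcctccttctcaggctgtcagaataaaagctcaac

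**Figure D1:**
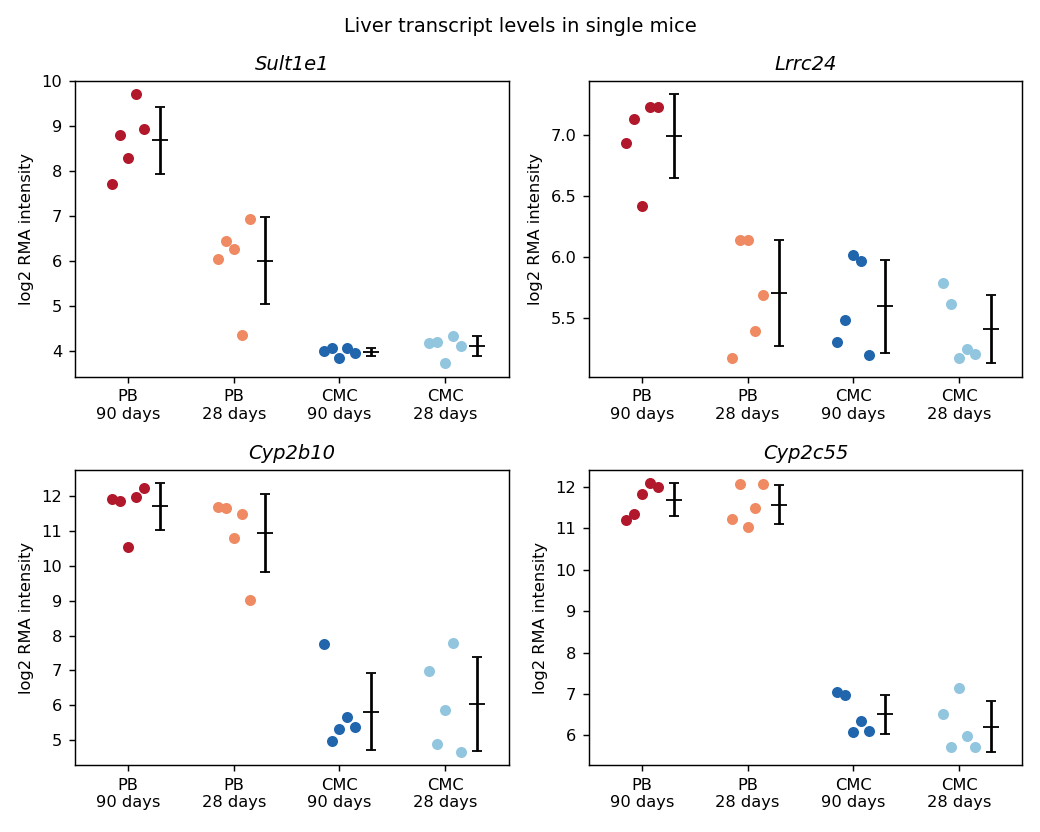
Log2 RMA intensity of Sult1e1, Lrrc24, Cyp2b10 and Cyp2c55 (vertical axes) in the 5 mice of each group, with the mean and SD beside the points. All PB 90-day mice lie above all PB 28-day mice for Sult1e1 and Lrrc24, while the treated groups overlap for Cyp2b10 and Cyp2c55.

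Lrrc24, a gene of a leucine-rich repeat membrane protein, came next. It stood at 6.93, 7.13, 6.42, 7.23 and 7.23 in PB 90-day livers and at 5.18, 6.14, 6.14, 5.40 and 5.69 in PB 28-day livers. The groups did not overlap. The difference was 1.28 (SE 0.22), with an adjusted p of 0.0682 in limma, short of the threshold. It passed without the 2 arrays that stood apart (adjusted p = 0.0440). Lrrc24 averaged 5.60 ± 0.38 in CMC 90-day and 5.41 ± 0.28 in CMC 28-day livers (SD, n = 5 each). The difference of differences was 1.09 and was not called.

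The next genes with a higher level at 90 days and no overlap had adjusted p-values between 0.815 and 0.971 in limma. Fdft1 (squalene synthase) and Srxn1 (sulfiredoxin, which repairs oxidised peroxiredoxins) were among them. Alad encodes aminolevulinate dehydratase, an early enzyme of heme synthesis. It was at 12.15, 12.38, 12.27, 12.15 and 12.18 in PB 90-day livers and at 11.68, 11.93, 11.34, 11.92 and 11.76 in PB 28-day livers, a difference of 0.50. In vehicle livers Alad averaged 12.16 ± 0.17 at 90 days and 12.001 ± 0.17 at 28 days. A second, dimmer probe set of Alad differed by 0.03 between the treated groups. Capn10, a calpain protease, differed by 1.11, by 0.85 without the 2 arrays apart and by 0.74 without replicate 5 of the PB 28-day group alone. It averaged 7.43 ± 0.45 in CMC 90-day and 7.04 ± 0.35 in CMC 28-day livers. A second Capn10 probe set, at 6.51 in PB 90-day and 6.37 in PB 28-day livers, differed by 0.14. Srxn1 averaged 8.33 ± 0.08 in PB 90-day and 7.71 ± 0.32 in PB 28-day livers, and 8.38 ± 0.21 in CMC 90-day and 7.98 ± 0.11 in CMC 28-day livers. Its difference of 0.62 turned to -0.27 when the probe sets marked _x_at or _s_at were left out.

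Differences of 0.44 to 0.62 were found for Tsr2, a factor of ribosome maturation, Ercc3, a helicase of DNA repair and transcription, Wnt5b, a secreted Wnt ligand, Slc15a5, Tdrp and 4833438C02Rik. Tsr2 averaged 7.58 ± 0.24 in PB 90-day, 6.96 ± 0.25 in PB 28-day, 7.41 ± 0.09 in CMC 90-day and 7.24 ± 0.13 in CMC 28-day livers. Ercc3 averaged 7.37 ± 0.12 in PB 90-day, 6.81 ± 0.33 in PB 28-day, 7.14 ± 0.16 in CMC 90-day and 7.03 ± 0.10 in CMC 28-day livers. The vehicle means of the other 4 ran, at 90 and 28 days, 5.66 and 5.52 for Wnt5b, 3.79 and 3.81 for Slc15a5, 7.22 and 7.02 for Tdrp, and 3.94 and 4.17 for 4833438C02Rik. Slc15a5 and 4833438C02Rik lay close to the array background in every group. Second, dimmer probe sets of Tsr2 and Wnt5b differed by 0.16 and 0.17 between the treated groups.

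Of the 41 genes with a lower level at 90 days and no overlap (0.255% of all genes), the 12 of smallest p come first here. Of these 12, 4 were markers of liver macrophages, described further on. Crot encodes the carnitine octanoyltransferase of peroxisomes, which hands shortened fatty acids on to carnitine. Its level was 12.32, 11.87, 12.33, 12.62 and 12.08 in PB 90-day livers and 12.76, 12.81, 12.62, 12.92 and 13.01 in PB 28-day livers, the highest 90-day mouse lying just below the lowest 28-day mouse. Crot differed by -0.58 (adjusted p = 0.971 in limma), with vehicle means of 12.47 ± 0.18 at 90 days and 12.64 ± 0.31 at 28 days. Tspan8, a tetraspanin of epithelial cells, averaged 4.87 ± 0.23 in PB 90-day and 5.48 ± 0.15 in PB 28-day livers, beside 5.46 ± 0.34 in CMC 90-day and 5.61 ± 0.39 in CMC 28-day livers. Other probe sets of Tspan8 differed by -0.29 to 0.46 between the treated groups. Mmd, first described in maturing macrophages, averaged 11.30 ± 0.16 in PB 90-day and 11.71 ± 0.21 in PB 28-day livers, beside 11.54 ± 0.05 in CMC 90-day and 11.53 ± 0.17 in CMC 28-day livers.

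The remaining 5 of these lower genes differed by -0.44 to -0.33 and were dim. They were Chrdl1, an antagonist of bone morphogenetic proteins, Trim69, the vomeronasal receptor gene Vmn2r1, Fam170a and D730005E14Rik. Their vehicle means at 90 and 28 days were 4.92 and 5.03 for Chrdl1, 3.83 and 4.10 for Trim69, 4.59 and 4.83 for Vmn2r1, 3.76 and 3.74 for Fam170a, and 3.88 and 4.15 for D730005E14Rik. For Trim69, Fam170a and D730005E14Rik no array of the PB 90-day group exceeded its own 25th percentile.

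Of the genes known to respond to phenobarbital, none but Sult1e1 was called between the treated durations. Cyp2b10, the classical CAR target of mouse liver, was at 11.93, 11.86, 10.54, 11.96 and 12.23 in PB 90-day livers. In PB 28-day livers it was at 11.68, 11.65, 10.81, 11.49 and 9.03. The groups overlapped, and the lowest mouse of each was the array that stood apart. The Cyp2b10 difference was 0.77 (95% interval -0.55 to 2.09), 0.58 without both of those arrays and 0.29 without the low 28-day array alone. Cyp2b10 averaged 5.82 ± 1.11 in CMC 90-day and 6.03 ± 1.34 in CMC 28-day livers, far below every treated mouse.

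Its close relatives varied more among treated mice. Cyp2b13 was at 10.01, 7.70, 6.99, 10.11 and 9.89 in PB 90-day livers and at 8.80, 8.67, 7.26, 8.85 and 5.91 in PB 28-day livers, a difference of 1.04 (95% interval -0.16 to 2.24). The Cyp2b13 difference was 0.54 without replicate 5 of the PB 28-day group. Cyp2b9 ran from 6.73 to 10.55 with a median of 9.76 in PB 90-day livers and from 6.26 to 10.22 with a median of 8.72 in PB 28-day livers. Both groups of each gene overlapped. Cyp2b13 averaged 5.12 ± 0.26 in CMC 90-day and 5.36 ± 0.20 in CMC 28-day livers. Cyp2b9 averaged 6.02 ± 2.0 in CMC 90-day and 5.66 ± 0.67 in CMC 28-day livers, and 1 vehicle mouse at 90 days reached 9.13. Probe sets of such near-identical P450 genes may share signal.

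Among the Cyp2c enzymes, which oxidise drugs and fatty acids, Cyp2c55 was at 11.20, 11.34, 11.83, 12.09 and 11.99 in PB 90-day livers and at 11.23, 12.06, 11.02, 11.48 and 12.07 in PB 28-day livers. Its difference was 0.12 (95% interval -0.51 to 0.75), and it averaged 6.51 ± 0.47 in CMC 90-day and 6.22 ± 0.61 in CMC 28-day livers. The intervals were narrower for the bright genes. They ran from -0.31 to 0.52 for Cyp2c50, from -0.36 to 0.56 for Cyp2c54 and from -0.29 to 0.21 for Cyp2c29. For Cyp3a11, a main drug-oxidising P450, the interval was -0.14 to 0.09, and for Ces2a, a carboxylesterase that cleaves ester drugs, -0.14 to 0.27. A value near the top of an array's range can be compressed.

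The vehicle levels of these bright genes were as follows. Cyp2c50 averaged 12.72 ± 0.25 in CMC 90-day and 12.40 ± 0.34 in CMC 28-day livers, and Cyp2c54 averaged 11.69 ± 0.39 in CMC 90-day and 11.56 ± 0.52 in CMC 28-day livers. Cyp2c29 averaged 13.89 ± 0.18 in CMC 90-day and 13.74 ± 0.22 in CMC 28-day livers. The vehicle differences of these genes were 0.33, 0.13 and 0.15. Cyp3a11 averaged 14.70 ± 0.08 in CMC 90-day and 14.77 ± 0.04 in CMC 28-day livers. Ces2a averaged 12.57 ± 0.08 in CMC 90-day and 12.56 ± 0.14 in CMC 28-day livers. Cyp2c37 differed by 0.12 between the treated durations, with means of 6.74 ± 0.25 in CMC 90-day and 6.34 ± 0.40 in CMC 28-day livers.

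Cyp2c65 had the smallest unadjusted p of the 36 P450 genes and electron donors tested. It was at 6.07, 6.48, 7.50, 6.98 and 5.23 in PB 90-day livers and at 6.23, 6.22, 4.48, 4.92 and 5.61 in PB 28-day livers, so the groups overlapped. The difference was 0.96 (unadjusted p = 0.0118, adjusted p = 0.971 in limma), with 3.82 ± 0.16 in CMC 90-day and 3.73 ± 0.28 in CMC 28-day livers. In the other direction, Cyp3a13 averaged 10.34 ± 0.73 in PB 90-day and 11.28 ± 0.47 in PB 28-day livers, a difference of -0.94. The vehicle livers held 9.43 ± 0.54 of Cyp3a13 at 90 days and 10.25 ± 0.66 at 28 days, a difference of -0.83. Cyp1a1, a target of the aryl hydrocarbon receptor, differed by -0.41 in treated and -0.35 in vehicle livers. It averaged 4.69 ± 0.26 in CMC 90-day and 5.04 ± 0.27 in CMC 28-day livers. Of the 36 genes 25 had a positive treated difference, with a median of 0.12, against 0.00 over all genes. In vehicle livers 21 of the 36 were positive, with a median of 0.13. The treated median was -0.00 when replicate 5 of the PB 28-day group was left out and 0.06 without both arrays apart. Cyp1a1 differed by -0.25 without that replicate.

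Nebl encodes nebulette, a protein that binds actin. It was at 7.86, 7.99, 8.09, 7.86 and 6.88 in PB 90-day livers and at 7.12, 8.66, 6.50, 5.43 and 5.70 in PB 28-day livers. A single 28-day mouse at 8.66 exceeded all of the 90-day mice. The difference was 1.05 (95% interval 0.16 to 1.94), or 0.72 without the 2 arrays apart, and vehicle means were 4.01 ± 0.22 at 90 days and 4.27 ± 0.44 at 28 days. The SDs of Nebl were 0.49 in PB 90-day and 1.29 in PB 28-day livers. Its interval used the spread shared with the less variable vehicle groups, and is too narrow for the treated mice taken alone. Abcc4, an exporter of bile acids and drug conjugates at the sinusoidal membrane, was at 7.84, 7.73, 6.20, 7.13 and 7.30 in PB 90-day livers and at 6.18, 6.57, 6.41, 6.60 and 5.90 in PB 28-day livers. Only the 90-day array that stood apart fell within the 28-day range. Its difference of 0.91 was 1.06 without both arrays (adjusted p = 0.636 in limma). Abcc4 averaged 5.74 ± 0.42 in CMC 90-day and 5.31 ± 0.36 in CMC 28-day livers.

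S100a8 encodes a calcium-binding alarmin known from neutrophils. It was at 13.21, 12.76, 12.97, 13.03 and 5.42 in PB 90-day livers and at 11.73, 12.46, 12.79, 11.95 and 7.80 in PB 28-day livers. In each group 1 mouse lay far below the other 4. The difference of 0.13 had a 95% interval of -2.27 to 2.53 and became -1.13 without the 2 arrays apart, of which the low 28-day mouse was one. Leaving out single treated mice moved it between -0.76 and 1.64. S100a8 averaged 5.19 ± 0.27 in CMC 90-day and 6.29 ± 0.57 in CMC 28-day livers. S100a9, its usual partner protein, stayed between 5.08 and 6.26 in PB 90-day and between 5.74 and 7.18 in PB 28-day livers. In vehicle livers S100a9 averaged 5.66 ± 0.34 at 90 days and 6.51 ± 0.60 at 28 days.

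Serpinb1a, an inhibitor of neutrophil proteases, differed by 0.68 and Orm3, an orosomucoid of the acute phase, by 0.54. Serpinb1a averaged 5.97 ± 0.85 in CMC 90-day and 6.0 ± 1.14 in CMC 28-day livers, and Orm3 averaged 6.15 ± 0.40 in CMC 90-day and 6.87 ± 0.81 in CMC 28-day livers. Pnliprp1, a pancreatic lipase-related gene, differed by 0.10 with vehicle means of 4.19 ± 0.29 at 90 days and 4.50 ± 0.24 at 28 days. Alas1, the rate-limiting enzyme of heme synthesis, spread from 7.16 to 10.71 in PB 90-day and from 7.10 to 10.47 in PB 28-day livers. It averaged 9.73 ± 1.58 in CMC 90-day and 9.77 ± 0.49 in CMC 28-day livers. For Nr1i3, the gene of CAR itself, the treated means were 9.73 at both durations, beside 9.61 ± 0.20 in CMC 90-day and 9.73 ± 0.62 in CMC 28-day livers. Gadd45b, a stress gene known as an early CAR target, averaged 6.41 ± 0.65 in PB 90-day, 6.46 ± 0.22 in PB 28-day, 5.95 ± 0.22 in CMC 90-day and 6.03 ± 0.19 in CMC 28-day livers.

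**Figure D2:**
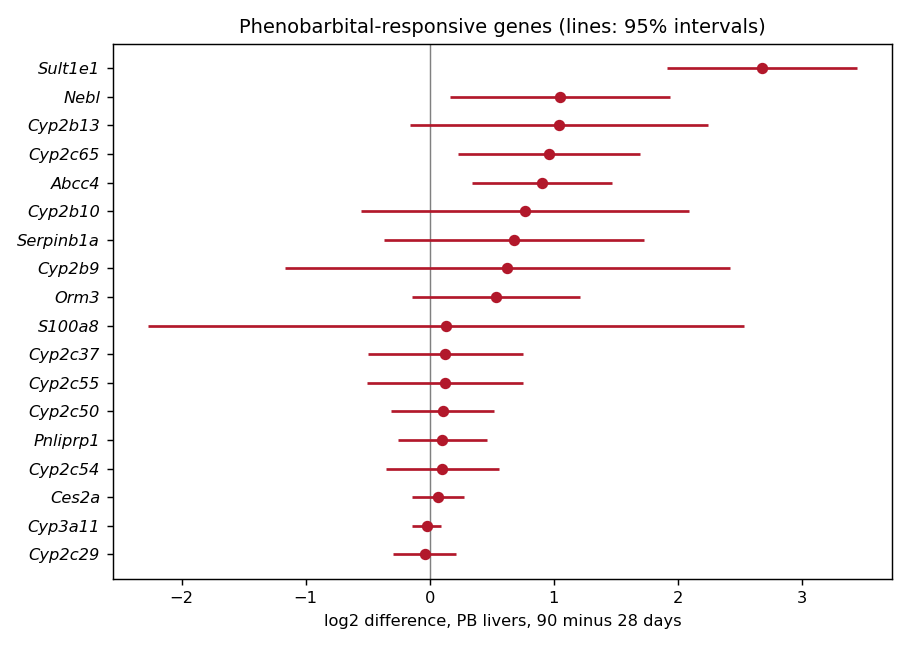
Differences between PB 90-day and PB 28-day livers in log2 units (horizontal axis) for 18 phenobarbital-responsive genes, with 95% intervals. The intervals were built from the limma standard error, whose spread is shared by all 4 groups, and 16 degrees of freedom. Sult1e1, at 2.68, is the gene whose interval of 1.92 to 3.44 lies farthest from 0, and S100a8 has the widest interval.

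Of the 45 conjugation enzymes tested, which attach sulfate, glucuronic acid or glutathione, 7 were higher at an unadjusted p under 0.05 and 1 lower, and Sult1e1 was the 1 called. Over all genes, 1.96% were higher and 2.27% lower at that p. Vehicle livers had 3 higher and 2 lower. Their treated median difference was -0.00, with 22 positive. The 7 Gstm genes tested encode glutathione transferases of the mu class, which neutralise reactive metabolites, and were singled out after their values were seen. Of these, 5 were higher at that p. Gstm3 was at 12.33, 13.11, 11.64, 12.73 and 12.85 in PB 90-day livers and at 11.66, 11.92, 11.60, 11.71 and 9.74 in PB 28-day livers. The groups overlapped at the 90-day array that stood apart. Gstm3 differed by 1.20 (1.03 without the 2 arrays apart, adjusted p = 0.971 with all arrays in limma) and averaged 11.02 ± 0.65 in CMC 90-day and 10.39 ± 0.57 in CMC 28-day livers. For Gstm4 the treated difference was 0.61 with no overlap, beside 10.06 ± 0.19 in CMC 90-day and 9.77 ± 0.22 in CMC 28-day livers. Gstm5, Gstm6 and Gstm2 differed by 0.38, 0.47 and 0.67. CMC livers at 90 and 28 days averaged 8.85 and 8.72 for Gstm5, 9.91 and 9.69 for Gstm6, and 9.78 and 9.54 for Gstm2. Gstm1 and Gstm7 did not reach that p, with differences of 0.51 and 0.18 and CMC means at 90 and 28 days of 13.24 and 12.74 for Gstm1 and 9.40 and 9.23 for Gstm7. Probe sets of this gene family may share signal, since its members are alike in sequence.

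Targets of NRF2, the sensor of oxidative stress, held 20 of 26 positive differences with a median of 0.29 in treated livers, and 20 of 26 with a median of 0.38 in vehicle livers. In treated livers 5 of the 26 were higher at an unadjusted p under 0.05 and 0 lower, beside 1.96% of all genes higher. In vehicle livers 6 were higher and 2 lower, beside 2.03% and 3.66% of all genes. Without replicate 5 of the PB 28-day group the median was 0.05.

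Genes of cholesterol synthesis and uptake had higher means at 90 days in most cases. Of 24 tested, 22 had a positive difference, 12 were higher at an unadjusted p under 0.05, and 0 were called. Their median was 0.39, against 0.00 over all genes, and 1.96% of all genes were higher at that p. Vehicle livers showed the same direction for 21 of 24, with a median of 0.28 and 5 higher at that p. In 0 of the 24 did the difference between durations differ between treated and vehicle livers at an unadjusted p under 0.05. Over all genes 1.38% did, so 0 in a list of this size does not show that the treatments were alike. Without the 2 arrays apart the treated median was 0.25, with 21 positive and 6 higher at that p.

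Lss encodes lanosterol synthase, which closes the sterol ring. It was at 9.67, 9.77, 9.08, 9.10 and 9.85 in PB 90-day livers and at 8.57, 8.62, 9.14, 8.28 and 7.51 in PB 28-day livers. A single 28-day mouse at 9.14 exceeded the 2 lowest 90-day mice. The difference was 1.07 (SE 0.25, adjusted p = 0.815 in limma), with 9.81 ± 0.28 in CMC 90-day and 9.26 ± 0.31 in CMC 28-day livers. Fdft1, which makes squalene and so commits isoprenoids to sterols, was at 11.61, 12.03, 11.68, 11.41 and 11.89 in PB 90-day livers and at 10.86, 11.35, 11.24, 10.62 and 10.30 in PB 28-day livers, with no overlap. Fdft1 differed by 0.85 (adjusted p = 0.815 in limma), beside 12.01 ± 0.29 in CMC 90-day and 11.33 ± 0.33 in CMC 28-day livers, a vehicle difference of 0.68. Of its 4 probe sets the 2 bright ones differed by 0.85 and 0.93, and the 2 dim ones by -0.28 and -0.08.

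Other steps of the pathway also had positive differences. Hmgcs1, an entry enzyme, differed by 0.49 in treated livers, with vehicle means of 13.40 ± 0.17 at 90 days and 12.93 ± 0.30 at 28 days. Mvd, which makes isopentenyl diphosphate, differed by 0.94 (vehicle means of 8.13 and 7.58 at 90 and 28 days). Sqle, the epoxidase of squalene, differed by 0.77 (vehicle means of 10.61 and 10.09 at 90 and 28 days). Nsdhl and Hsd17b7, which remove methyl groups from the sterol ring, differed by 0.55 and 0.76 in treated livers. Vehicle means at 90 and 28 days were 11.34 and 10.87 for Nsdhl and 10.66 and 9.80 for Hsd17b7. Dhcr7, which acts late on the way to cholesterol, differed by 0.86 (vehicle means of 10.48 and 9.94 at 90 and 28 days). Srebf2, which encodes the transcription factor that drives this pathway, differed by 0.37, and Npc1l1, a sterol uptake protein, by -0.17. In CMC livers the means at 90 and 28 days were 7.49 and 7.51 for Srebf2 and 4.33 and 4.29 for Npc1l1. When replicate 5 of the PB 28-day group was left out, Hmgcs1 differed by 0.30 and Sqle by 0.49.

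**Figure D3:**
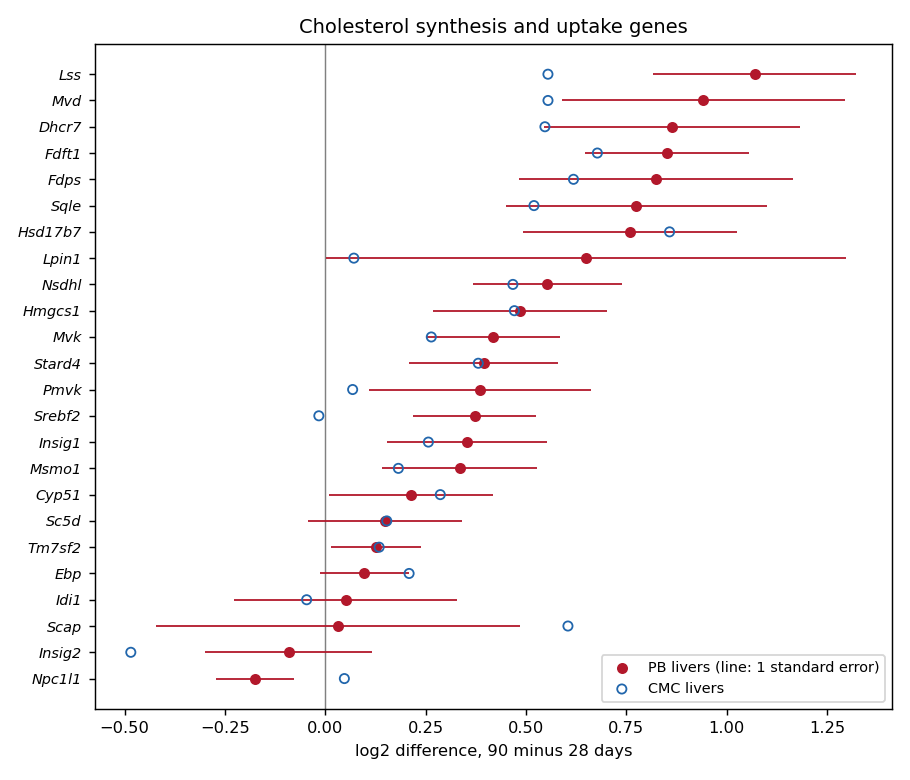
Log2 difference between 90 and 28 days (horizontal axis) of 24 cholesterol genes in PB livers (filled, with 1 standard error) and in CMC livers (open). In PB livers 22 points lie above 0, from Lss at 1.07 downward, and most vehicle points lie on the same side.

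Upstream windows are shown for 3 sterol genes because most members had positive differences in both treatments. RefSeq (GRCm38.p6) gave the 250 bases before the start for 20 of the genes. CCAAT, the box bound by NF-Y, and TCACNCCAC, letters of a sterol response element, were searched on both strands, and CCAAT was chosen after the sequences had been read. CCAAT was present in 17 of 20 sterol windows (85%) and in 34.5% of 27025 windows, and TCACNCCAC in 1 of 20 and in 1.04% of all. The windows are chr10:76531355-76531604 (plus strand) for Lss, chrX:72918271-72918520 (plus) for Nsdhl and chr13:119690101-119690350 (plus) for Hmgcs1. Capitals mark the matches, all CCAAT on either strand except the TCACNCCAC match of Hmgcs1, 137 bases before the start.
Lss: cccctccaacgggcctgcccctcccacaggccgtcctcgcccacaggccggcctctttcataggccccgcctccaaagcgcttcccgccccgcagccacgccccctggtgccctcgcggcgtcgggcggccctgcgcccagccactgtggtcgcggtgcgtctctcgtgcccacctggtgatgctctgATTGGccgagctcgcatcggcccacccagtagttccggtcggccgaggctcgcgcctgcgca
Nsdhl: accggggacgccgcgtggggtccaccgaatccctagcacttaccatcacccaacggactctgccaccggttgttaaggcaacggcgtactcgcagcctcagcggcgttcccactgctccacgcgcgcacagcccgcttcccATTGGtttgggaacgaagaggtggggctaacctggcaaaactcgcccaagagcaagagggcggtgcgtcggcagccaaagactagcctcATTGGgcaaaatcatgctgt
Hmgcs1: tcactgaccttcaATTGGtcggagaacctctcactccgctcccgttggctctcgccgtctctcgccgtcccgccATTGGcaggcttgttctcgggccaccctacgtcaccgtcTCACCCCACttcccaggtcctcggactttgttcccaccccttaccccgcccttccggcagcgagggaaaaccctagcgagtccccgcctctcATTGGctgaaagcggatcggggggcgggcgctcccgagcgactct

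Fatty acid synthesis showed the same direction in both treatments. Of 42 lipogenesis genes tested, 39 had a positive difference in treated and 39 in vehicle livers, with medians of 0.36 and 0.50. In treated livers 7 were higher at an unadjusted p under 0.05 and 0 lower, beside 1.96% of all genes higher. In vehicle livers 5 were higher and 1 lower at that p. Without replicate 5 of the PB 28-day group the treated median was 0.05. Acss2, which makes acetyl-CoA from acetate, was at 11.73, 11.69, 11.31, 11.58 and 12.13 in PB 90-day livers and at 10.30, 10.49, 11.21, 11.42 and 9.39 in PB 28-day livers, a difference of 1.13. Pklr, liver pyruvate kinase, differed by 1.17 and Acly, which cleaves citrate to acetyl-CoA, by 0.84. Other, dimmer probe sets differed by 0.61 and 0.29 for Pklr and by -0.04 to 0.95 for Acly. Vehicle means at 90 and 28 days were 11.87 and 11.04 for Acss2, 8.98 and 8.30 for Pklr, and 11.56 and 11.04 for Acly. Thrsp, a thyroid-responsive regulator of lipogenesis, differed by 1.08, and Pparg, a nuclear receptor of fat storage, by 0.54. Vehicle means at 90 and 28 days were 12.67 and 12.14 for Thrsp and 7.14 and 6.46 for Pparg.

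Markers of Kupffer cells, the resident macrophages of the liver, and of other macrophages had lower means in PB 90-day than in PB 28-day livers. All 29 tested had a negative difference, with a median of -0.58 against 0.00 over all genes. At an unadjusted p under 0.05, 11 of 29 were lower and 0 higher, beside 2.27% of all genes lower, and 0 were called. In vehicle livers 26 of 29 were negative, with a median of -0.28 and 6 lower at that p. The difference between treated and vehicle livers reached an unadjusted p under 0.05 in 0 of the 29, beside 1.38% of all genes. Without the 2 arrays apart the treated median was -0.62, with 2 positive and 15 lower at that p. Each array's mean over the list ran from 6.46 to 7.47 in PB 90-day livers, from 7.13 to 7.87 in PB 28-day livers, from 6.51 to 7.32 in CMC 90-day livers and from 6.84 to 7.67 in CMC 28-day livers, so these ranges overlapped. In bulk tissue fewer cells of a type and less RNA per cell cannot be told apart.

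Cd68, a glycoprotein of macrophage lysosomes, was at 4.79, 4.38, 4.83, 5.08 and 4.50 in PB 90-day livers and at 5.24, 5.45, 6.11, 5.84 and 5.69 in PB 28-day livers. Cd5l, a protein secreted by macrophages, was at 7.93, 8.80, 9.66, 9.57 and 8.38 in PB 90-day livers and at 9.85, 9.75, 10.17, 9.78 and 10.19 in PB 28-day livers. Neither gene overlapped between the groups. Their differences were -0.95 (adjusted p = 0.815 in limma) and -1.08 (adjusted p = 0.971). Cd68 averaged 5.11 ± 0.57 in CMC 90-day and 5.39 ± 0.34 in CMC 28-day livers, and Cd5l averaged 9.46 ± 0.41 in CMC 90-day and 9.77 ± 0.30 in CMC 28-day livers.

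The 3 chains of C1q, the starter of the classical complement pathway, which macrophages make, were all lower at 90 days. C1qc was at 6.82, 6.65, 7.68, 7.15 and 6.68 in PB 90-day livers and at 7.84, 7.77, 7.99, 7.78 and 7.92 in PB 28-day livers. C1qc and C1qb did not overlap between the groups, while C1qa did. For C1qb the gap was hardly there, with the highest PB 90-day mouse at 8.48 and the lowest PB 28-day mouse at 8.49. The differences were -0.86 for C1qc, -1.03 for C1qb and -0.92 for C1qa. Vehicle means at 90 and 28 days were 7.44 and 7.65 for C1qc, 7.95 and 8.54 for C1qb, and 8.28 and 8.78 for C1qa.

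Defining markers of Kupffer cells included Clec4f, a lectin of these cells in rodents, which averaged 8.64 ± 0.71 in PB 90-day, 9.57 ± 0.57 in PB 28-day, 8.75 ± 0.55 in CMC 90-day and 9.36 ± 0.79 in CMC 28-day livers. Vsig4, a complement receptor, differed by -1.26 in treated livers, and Timd4, a receptor for dying cells, by -0.88. Vehicle means at 90 and 28 days were 8.45 and 9.39 for Vsig4 and 4.89 and 5.53 for Timd4. The broader macrophage genes Adgre1 and Csf1r differed by -0.59 and -0.58, with unadjusted p-values of 0.0673 and 0.0899 in limma. They averaged 7.36 and 7.59 (Adgre1) and 9.74 and 9.84 (Csf1r) in CMC livers at 90 and 28 days. Lyz2, lysozyme, differed by -1.15 in treated and -1.76 in vehicle livers, where it averaged 7.08 at 90 days and 8.84 at 28 days. The treated differences of Lyz2 and Csf1r were -0.72 and -0.93 without replicate 5 of the PB 28-day group, and that of Adgre1 was -0.38 without replicate 2 of the PB 90-day group.

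**Figure D4:**
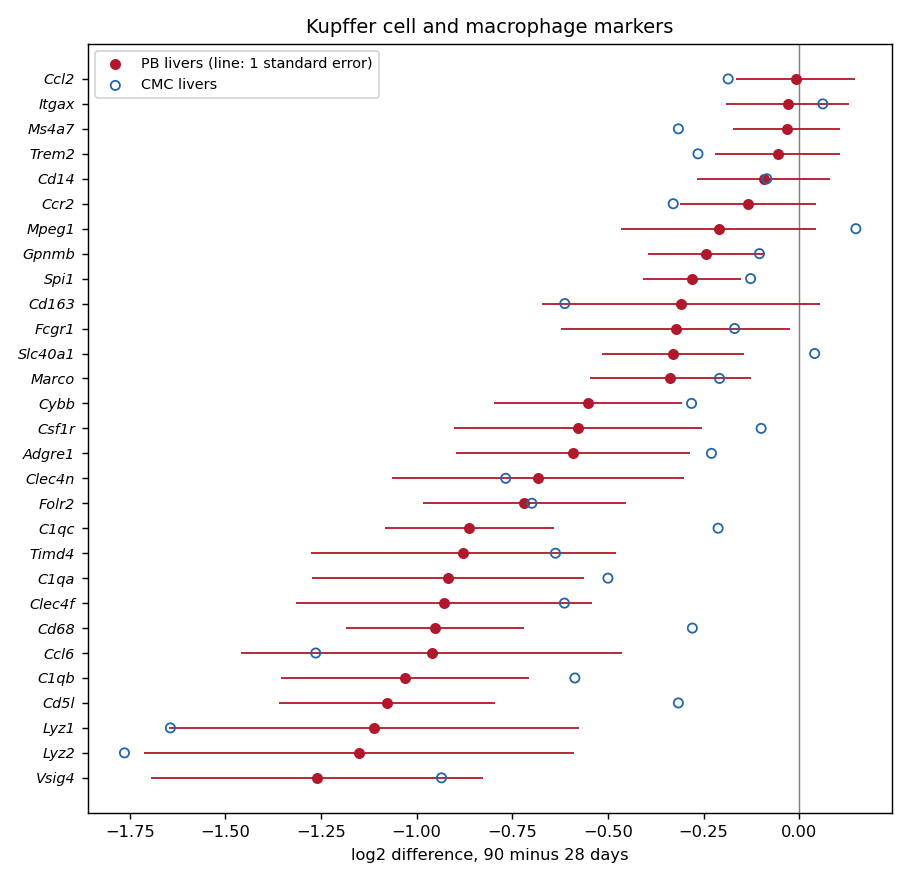
Log2 difference between 90 and 28 days (horizontal axis) of 29 macrophage markers in PB livers (filled, with 1 standard error) and in CMC livers (open). All PB points lie below 0, down to Vsig4 at -1.26, and 26 of 29 CMC points do too.

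Other immune lists had smaller differences. Neutrophil markers were negative in 14 of 17, with a median of -0.18 and 3 lower at an unadjusted p under 0.05, beside 2.27% of all genes. In vehicle livers 12 of 17 were negative, with a median of -0.21 and 4 lower at that p, beside 3.66% of all genes. Mpo, the peroxidase of neutrophil granules, averaged 4.68 ± 0.26 in PB 90-day, 5.15 ± 0.18 in PB 28-day, 4.77 ± 0.23 in CMC 90-day and 4.94 ± 0.23 in CMC 28-day livers. Fpr2, a chemoattractant receptor, averaged 5.97 ± 0.36 in PB 90-day, 6.62 ± 0.59 in PB 28-day, 6.09 ± 0.20 in CMC 90-day and 6.44 ± 0.46 in CMC 28-day livers. Interferon-stimulated genes were negative in 28 of 42 treated differences (median -0.09) and in 13 of 42 vehicle differences (median 0.07). Without the 2 arrays apart 20 of 42 treated differences were positive, with a median of -0.05, against -0.01 over all genes. In 0 of the 42 did the difference between durations differ between treated and vehicle livers at an unadjusted p under 0.05. Over all genes 1.38% did. Of the interferon-stimulated genes, Iigp1 and Gbp6, both interferon-inducible GTPases, differed by -0.44 and -0.68 in treated and by -0.28 and 0.11 in vehicle livers. Zbp1, a sensor of nucleic acids, differed by -0.55 and -0.26. A second Zbp1 probe set differed by 0.08 between the treated groups. Iigp1 averaged 12.64 and 12.92, Gbp6 averaged 7.92 and 7.81, and Zbp1 averaged 6.19 and 6.44 in CMC livers at 90 and 28 days.

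Markers of stellate cells and fibroblasts were positive in 33 of 39 treated and 20 of 39 vehicle differences, with medians of 0.16 and 0.00. The treated median was 0.05 without replicate 5 of the PB 28-day group. In 0 of the 39 did the difference between durations differ between treated and vehicle livers at an unadjusted p under 0.05. Over all genes 1.38% did. Lymphocyte markers were negative in 23 of 30 treated and 24 of 30 vehicle differences, and their treated median of -0.15 was 0.02 without that replicate. Endothelial and cholangiocyte markers had treated medians of 0.05 and 0.05, and each turned negative under at least 1 alternative. In each of these lists 0 genes were called.

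Among proliferation genes 0 were called between the treated groups. Of 62 tested, 29 had a positive and 33 a negative difference, with a median of -0.02. At an unadjusted p under 0.05, 1 was higher and 1 lower, beside 1.96% and 2.27% of all genes. Of the 62 genes, 15 lay close to the array background, so that a difference in them could be missed. Mki67, the marker of dividing cells, averaged 4.72 ± 0.22 in PB 90-day, 4.88 ± 0.19 in PB 28-day, 4.61 ± 0.09 in CMC 90-day and 4.53 ± 0.23 in CMC 28-day livers. It was dim, with group means 0.47 to 0.78 above the array's own 25th percentile. Ccnd1, cyclin D1, averaged 7.11 ± 0.22 in PB 90-day, 7.07 ± 0.13 in PB 28-day, 7.38 ± 0.27 in CMC 90-day and 7.13 ± 0.20 in CMC 28-day livers. The gene higher at that p was Cdk2, a kinase of S phase entry, at 0.72, and the one lower was Lmnb1, a nuclear lamin, at -0.31. Cdk2 averaged 7.42 and 7.17, and Lmnb1 averaged 7.30 and 7.29, in CMC livers at 90 and 28 days. The Cdk2 difference was 0.48 without replicate 2 of the PB 28-day group.

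Liver tumour and imprinted genes had a median of 0.06 over 29. Meg3, a maternally expressed noncoding RNA of the Dlk1-Dio3 region, was at 9.92, 10.62, 7.46, 9.12 and 9.47 in PB 90-day livers and at 8.60, 8.14, 8.42, 7.76 and 7.41 in PB 28-day livers. Only the 90-day array that stood apart fell within the 28-day range. The difference was 1.25 (unadjusted p = 0.0111, adjusted p = 0.971 in limma), and 1.55 without both arrays (adjusted p = 0.748). Of the 11 probe sets of Meg3, some differed by 0.66 to 1.56 and the others by -0.05 to 0.24. Meg3 averaged 8.39 ± 0.82 in CMC 90-day and 7.60 ± 0.30 in CMC 28-day livers.

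Among zonated genes, 22 of 27 pericentral targets of Wnt and beta-catenin had a positive difference in treated and 22 of 27 in vehicle livers, with medians of 0.17 and 0.21. Without replicate 5 of the PB 28-day group the treated median was 0.00. Glul, glutamine synthetase of the cells around the central vein, averaged 12.10 ± 0.43 in PB 90-day, 11.84 ± 0.58 in PB 28-day, 12.37 ± 0.24 in CMC 90-day and 12.19 ± 0.27 in CMC 28-day livers. The treated difference of Glul, 0.26, was 0.01 without that replicate. A second Glul probe set, at 10.35 in PB 90-day and 9.83 in PB 28-day livers, differed by 0.52 with all arrays. Periportal genes had a treated median of 0.11, which was -0.07 without that replicate and 0.01 without both arrays apart. Hsd17b6, a steroid dehydrogenase among them, differed by -0.57 without overlap between the treated groups, and averaged 11.86 ± 0.43 in CMC 90-day and 11.87 ± 0.18 in CMC 28-day livers.

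Cyp7a1, the rate-limiting enzyme of bile acid synthesis, averaged 10.09 ± 0.96 in PB 90-day, 9.58 ± 0.64 in PB 28-day, 11.16 ± 0.96 in CMC 90-day and 10.52 ± 0.83 in CMC 28-day livers, a treated difference of 0.51 (95% interval -0.53 to 1.56). Cyp39a1, which hydroxylates an oxysterol on the way to bile acids, differed by -1.10 in treated and -1.23 in vehicle livers, where it averaged 5.70 and 6.93 at 90 and 28 days. Vnn1, a pantetheinase and target of PPAR alpha, differed by -1.12, with vehicle means of 5.87 and 5.91 at 90 and 28 days. The highest PB 90-day and the lowest PB 28-day mouse were both at 5.43, so that the groups lay next to each other without a clear gap. The Vnn1 difference was -0.67 without replicate 4 of the PB 28-day group, which lay at 7.96. Apom, an apolipoprotein of high-density lipoprotein, differed by -0.53, with vehicle means of 12.84 and 13.03 at 90 and 28 days.

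Some of the widest differences came with wide spread. Noct, a rhythmic gene of clock output, was at 9.40, 10.93, 7.05, 7.96 and 8.69 in PB 90-day livers and at 6.82, 7.11, 5.81, 7.13 and 4.47 in PB 28-day livers. The groups overlapped by 1 mouse. The difference was 2.54 (SE 0.74, adjusted p = 0.971 in limma), beside 1.68 in vehicle livers, where Noct averaged 9.08 ± 1.60 at 90 days and 7.41 ± 0.89 at 28 days. The labels do not state the time of day of necropsy. Moxd1, a gene expressed more in male mouse liver, was at 10.80, 11.81, 9.95, 6.54 and 5.67 in PB 90-day livers and at 6.44, 5.15, 6.78, 4.52 and 5.88 in PB 28-day livers. Moxd1 averaged 7.14 ± 3.30 in CMC 90-day and 5.05 ± 1.19 in CMC 28-day livers. Genes expressed more in female liver, of which Sult1e1 and Nebl are listed members, had 17 of 30 positive differences and a median of 0.11. The median turned to -0.03 without replicate 4 of the PB 90-day group. Trim24, another of them and a nuclear receptor cofactor, differed by 0.73, with vehicle means of 6.90 and 6.37 at 90 and 28 days. The Trim24 difference was 0.34 without replicate 5 of the PB 28-day group, which lay at 4.33, below the rest of its group, and 0.44 without both arrays apart. Other, dimmer probe sets of Trim24 differed by 0.16 and -0.11 with all arrays.

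**Figure D5:**
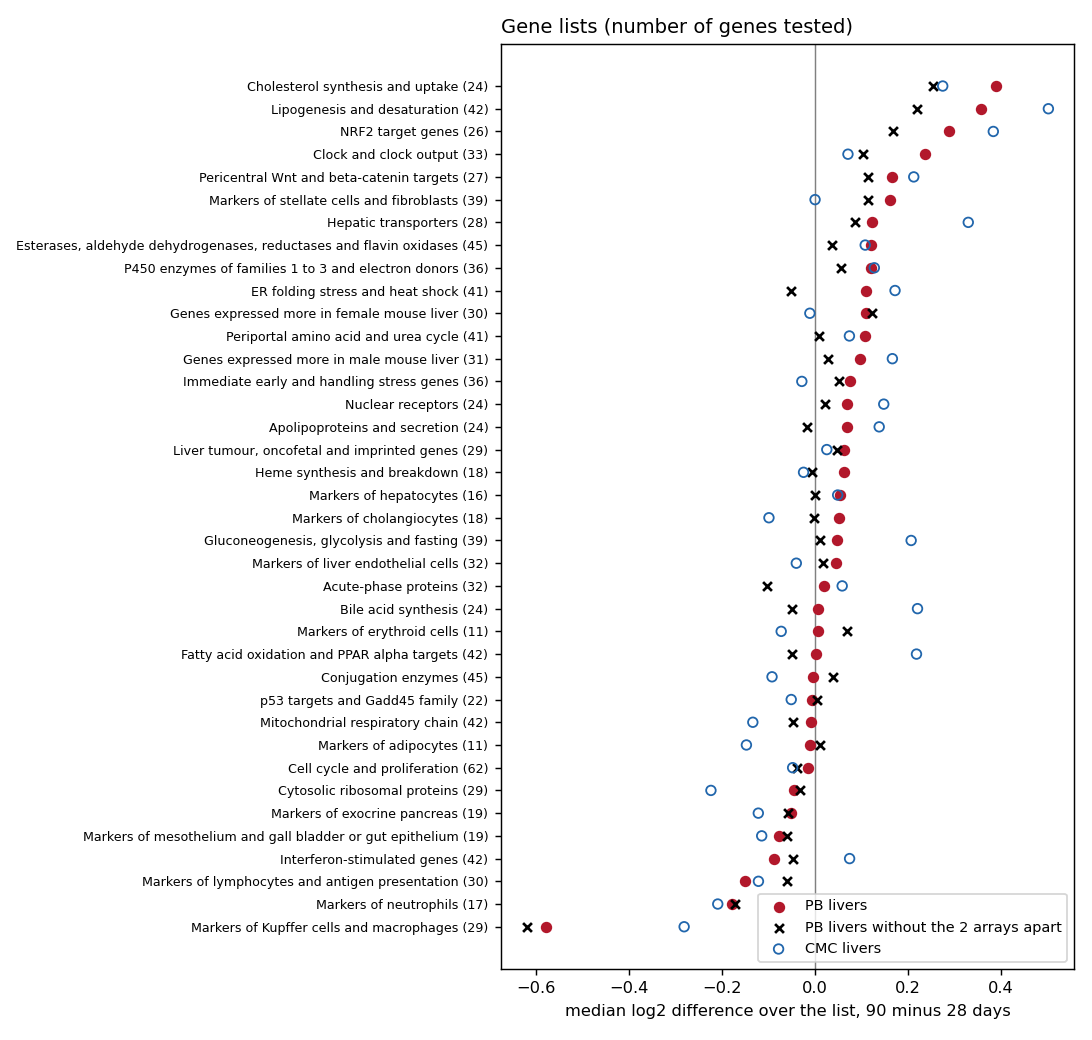
Median log2 difference between 90 and 28 days (horizontal axis) over each of 38 gene lists in PB livers (filled), in PB livers without the 2 arrays apart (crosses) and in CMC livers (open). Macrophage markers lie lowest in PB livers at -0.58 and cholesterol genes highest at 0.39, and the vehicle medians of both lie on the same side of 0.

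The vehicle livers alone, at 90 against 28 days, gave 0 called genes in limma, with 326 higher (2.03%) and 587 lower (3.66%) at an unadjusted p under 0.05, or 5.69% in all. The groups did not overlap for 218 genes higher (1.36%) and 156 lower (0.972%). The 5 genes of smallest p were 9030619P08Rik, Nbdy, a small protein of mRNA decapping bodies, Tmem61, Zfp605 and Nap1l3, and all were lower at 90 days, by -1.53 to -0.46. Of these, 9030619P08Rik averaged 9.22 ± 0.30 in PB 90-day, 9.75 ± 0.29 in PB 28-day, 7.25 ± 0.46 in CMC 90-day and 8.77 ± 0.77 in CMC 28-day livers. Treated means at 90 and 28 days were 6.33 and 6.56 for Nbdy, 5.09 and 5.27 for Tmem61, 4.74 and 4.82 for Zfp605, and 4.79 and 4.59 for Nap1l3.

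The direct test of whether the durations differed more in treated than in vehicle livers called 0 of 16054 genes, with 149 positive (0.928%) and 72 negative (0.448%) at an unadjusted p under 0.05, or 1.38% in all. After Sult1e1 the smallest p-values belonged to 4833438C02Rik, Nap1l3, Lrrc24 and Rabl3, with differences of 0.67, 1.01, 1.09 and 1.04 log2 units. Rabl3, a small GTPase-like protein, averaged 8.75 ± 0.43 in PB 90-day, 8.15 ± 0.20 in PB 28-day, 8.64 ± 0.22 in CMC 90-day and 9.08 ± 0.38 in CMC 28-day livers. None of these 4 was called in limma. Treated and vehicle comparisons used separate mice and shared only the estimate of the spread.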

How the data were processed

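Liver RNA of 20 mice was measured on Affymetrix 3' expression arrays. Per the submitters' processing notes, the authors used RMA, and the deposited log2 intensities were taken as they stand. No version of RMA or genome build is given in the sources used here. RMA can shrink differences at either end of the intensity scale.

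The table held 45037 probe sets, of which 34945 had 1 gene symbol in the platform annotation, 932 several and 9160 none. The probe set with the highest mean over all arrays stood for a gene, which gave 18193 genes. Genes above the array's own 25th percentile (3.96 to 4.26) on at least 5 arrays were tested, 16054 in all. Por was not analysed here. The number of arrays limits the precision.

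All 4 groups entered 1 fit in limma 3.58.1 (R 4.3.3), with a mean for each and an intensity trend. The contrasts were PB at 90 against 28 days, CMC at 90 against 28 days, and the difference between them, with two-sided p-values adjusted by Benjamini-Hochberg over all genes and called under 0.05. Intervals of 95% used the limma standard error and the 16 residual degrees of freedom, fewer than the limma p-values used. Each group held 5 mice. The standard error came from the spread shared by all 4 groups. Treated mice spread more widely than vehicle mice in Sult1e1, Nebl, Cyp2b13, Cyp2c65 and S100a8. For such genes the intervals are too narrow, and the p-values too small, for the treated mice taken alone.

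The rule for named genes took, in each direction, called genes and then genes of smallest p without overlap, up to 12. It added 5 genes each for the vehicle comparison and the difference, a fixed set of phenobarbital-responsive genes, and members of smallest p from 38 gene lists, up to 3 each, of which those of the lists described are given. Other list members were chosen after their values were seen. The members and lists were chosen with earlier results of these data known. Lists are described by counts and medians, with no set test. Alternatives were other filters, other rules for probe sets, only the groups compared, no intensity trend, weighting of arrays, centring at the 75th percentile, cyclic loess normalization, the replicate number as a block, removal of each array and of the 2 arrays apart. The first principal component as a covariate was added after seeing the data. Replicate numbers did not pair the mice. Figures were drawn with matplotlib 3.10.9 (Python 3.11.15).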

Additional observations from a re-analysis of the deposited data

Results flagged for a closer look

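For 96 genes, the highest or lowest of the 5 mice in each group was compared with its neighbours, and a mouse was noted when its gap to the nearest one exceeded 0.71 of the group's whole range. This happened in 36 of 384 gene and group sets (9.38%), where chance gives about 1 in 20. Of the 36, 14 came from replicate 5 of the PB 28-day group and 2 from replicate 3 of the PB 90-day group, the arrays that stood apart on the leading component. The part of either array in these values was not tested.

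In PB 90-day livers, replicate 3 was low for Cyp2b10 at 10.54 and for Cyp2c54 at 13.28. Replicate 5 was low for Nebl at 6.88 and for S100a8 at 5.42, where the nearest mouse stood at 12.76, and high for Ccnd1 at 7.50. Replicate 1 was high for Ercc3 at 7.58.

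In PB 28-day livers, replicate 5 was low for 11 genes. Its level was 6.52 for Tsr2, 5.17 for Capn10, 7.34 for Cyp2c37, 12.87 for Cyp2c50, 13.85 for Cyp2c29 and 13.42 for Ces2a. The other low values were 7.80 for S100a8, 10.82 for Glul, 9.74 for Gstm3, 9.17 for Gstm4 and 4.33 for Trim24. The same array was high for Cyp1a1 at 5.68, for 9030619P08Rik at 10.26 and for Timd4 at 6.85. Over all probe sets it had the highest 25th and the lowest 75th percentile of all arrays. Elsewhere in this group Wnt5b was low at 5.06 in replicate 1, Pparg was high at 7.14 in replicate 2 and Vnn1 was high at 7.96 in replicate 4.

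In CMC 90-day livers, Cyp2b10 was high at 7.76 in replicate 1, Apom low at 12.12 in replicate 2, Nebl high at 4.38 in replicate 4 and Fam170a high at 4.08 in replicate 5. In CMC 28-day livers, replicate 3 was high for Fam170a at 3.91, Moxd1 at 7.12 and Nbdy at 7.17, and low for Cyp2c50 at 11.81 and Cyp2c29 at 13.35. Replicate 5 was low for Serpinb1a at 3.99 and Hsd17b6 at 11.55 and high for Orm3 at 8.28, and replicate 1 was high for 4833438C02Rik at 4.40.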

How the results depend on the processing

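The comparison of the treated groups called 1 gene. It called 0 in a fit of only these groups (417 at an unadjusted p under 0.05), 2 with array weights, 2 with cyclic loess, 2 without both arrays that stood apart, and between 1 and 2 when single treated arrays were left out. Sult1e1 was called in 22 of 23 alternatives, the exception being the fit of only the treated groups, and the second gene was Lrrc24, called in 6 of 23. The numbers of replicates did not pair the mice (correlations of same-numbered deviations from -0.686 to 0.496, and 0 of 5 arrays matched best with their own number). With the replicate block, which the design does not call for, the count was 1 and the adjusted p of Sult1e1 was 0.0448 in limma. The vehicle comparison and the difference between treated and vehicle livers gave 0 called genes under every alternative run. Without the 2 arrays apart, 2814 vehicle genes reached an unadjusted p under 0.05, against 913 with all arrays. The treated count at that p was 679, with 427 when replicate 1 and 1205 when replicate 3 of the PB 90-day group was left out. Centring on the 75th percentile moved the median difference over all genes to -0.07 and the share of positive differences to 36.5%, against 50.3%. Of 96 genes, 12 turned in sign under at least 1 alternative, none of them called, and of 38 list medians 26 did. Leaving out 1 treated array moved the difference by over 1.5 times or turned its sign for 33 of the 96 genes. The macrophage median stayed between -0.69 and -0.44 and the cholesterol median between 0.25 and 0.44. The ER stress median was 0.11, with 31 of 41 positive, and -0.05, with 14 positive, without the 2 arrays apart. Arrays with 5 mice per group, dim probe sets and compression of bright ones limit what could be detected, and the causes of these shifts were not tested.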

Other observations

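Of 35662 probe sets tested singly, 6745 had no single gene symbol in the annotation. Between PB 90-day and PB 28-day livers 0 of these unnamed probe sets were called in limma, and the smallest adjusted p among them was 0.893.

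Pathway lists with medians near 0 between the treated durations included mitochondrial respiratory chain genes, with 18 of 42 positive and a median of -0.01, and fatty acid oxidation genes, with 22 of 42 positive and a median of 0.00. In vehicle livers 35 of the 42 fatty acid oxidation genes were positive, with a median of 0.22. Cytosolic ribosomal protein genes were positive in 7 of 29 treated and 2 of 29 vehicle differences, with medians of -0.04 and -0.22. Whether treated and vehicle livers differ in these lists was not tested, and 0 genes of the 3 lists were called.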
